A study of Mus musculus with 14 samples.

Results

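Microglia are the resident macrophages of the brain, and 35 genes that mark them or serve their known functions were followed through cortex RNA of 14 mice. The genes were taken by symbol from a list, all 35 were present among the 34193 symbols of the deposited count table, and all 35 were among the 13815 genes that passed the filter on low counts. The series compared 7 mice heterozygous for a knockout of Dnmt3a, a DNA methyltransferase gene, with 7 wild-type littermates, all C57BL/6J and 8 weeks old. Each genotype held 4 females and 3 males. The animals also differ in the leading number of their sample title: prefixes 046, 047, 048, 139 and 119 hold 1 animal of each genotype, prefix 141 holds 2 of each, and every prefix is of 1 sex. The labels do not say what this number marks. They describe a whole tissue, so that fewer microglia and less RNA per microglial cell cannot be told apart in any value below. RNA of these genes from other cells of the cortex cannot be set apart in these values either.

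Microglia derive from yolk sac progenitors and persist in the brain by local renewal under signals from the receptor Csf1r. They watch their surroundings through purine and chemokine receptors, take up dying cells and synaptic material, and tag targets with the complement component C1q. Trem2 and several Fc receptors signal in these cells through adaptors with an immunoreceptor tyrosine-based activation motif (ITAM), of which Tyrobp is the best known. The transcription factors PU.1 and Irf8 are needed for their development.

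Library totals lay between 8951835 and 14335406 counts. Dnmt3a, the targeted gene, stood at 124 to 164 CPM (counts scaled to a common library size) in wild-type mice and 84.3 to 118 CPM in heterozygotes, with no overlap. The 3 defining markers Cx3cr1, P2ry12 and Tmem119 were present in every animal at 49.1 to 83.6, 25.6 to 52.2 and 23.3 to 34.8 CPM. The 35 genes together took 632 to 929 CPM, against 10006 to 19057 CPM for 12 astrocyte markers. Of 10 blood leukocyte markers, none passed the filter and the highest count in any animal was 12, for the monocyte receptor Ccr2. Markers of the macrophages at brain borders summed to 23.5 to 34.4 CPM over 8 genes. The first principal component, with 34.3% of the variance of all genes, separated prefixes 119 and 141 (called set B here, 6 animals) from the other prefixes (set A, 8 animals). These sets were named after that separation was seen.

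Promoter windows of these genes were searched for a short sequence and for CpG pairs, as a description. RefSeq windows of GRCm38.p6, from 250 bases before to 50 bases after the annotated start, were found for 26 of the 35 genes. The sequence GAGGAAGT, a common form of the site bound by PU.1, was searched on both strands, where it reads ACTTCCTC on the other strand. It was present in 5 of the 26 windows (19.2%) and in 254 of 9690 windows of all tested genes (2.62%). The median number of CpG pairs was 6 in the windows of the microglia genes and 21 in those of all tested genes. A match is a run of letters and not a shown binding site. The windows of P2ry12, P2ry13, Siglech, Mertk, Tgfbr1, Fcer1g, Fcgr3, Itgam, Ly86, Aif1 and Rgs10, which also differed among the title prefixes, held no match. Gpr34, which differed too, had no window. Of the genes whose genotypes did not overlap within set B, C1qb, Mertk, Fcgr3 and Aif1 held none either. Selplg, Csf1r, Tyrobp, C1qa and Unc93b1 of that group had no window. A link of the match to these differences was not tested. The 4 windows below all hold a match. They belong to 2 genes that differed among the title prefixes (Ctss and Cd53) and 2 whose genotypes did not overlap within set B (Inpp5d and C1qc), and capitals mark the match. Each reads 5′ to 3′ along the gene's own strand.
Ctss, chr3:95526536-95526835, plus strand: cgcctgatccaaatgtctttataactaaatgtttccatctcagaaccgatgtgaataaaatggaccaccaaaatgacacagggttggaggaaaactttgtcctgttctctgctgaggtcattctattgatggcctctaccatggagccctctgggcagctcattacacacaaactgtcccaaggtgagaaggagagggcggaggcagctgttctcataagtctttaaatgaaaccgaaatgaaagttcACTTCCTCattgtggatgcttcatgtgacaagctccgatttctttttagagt
Cd53, chr3:106790100-106790399, minus strand: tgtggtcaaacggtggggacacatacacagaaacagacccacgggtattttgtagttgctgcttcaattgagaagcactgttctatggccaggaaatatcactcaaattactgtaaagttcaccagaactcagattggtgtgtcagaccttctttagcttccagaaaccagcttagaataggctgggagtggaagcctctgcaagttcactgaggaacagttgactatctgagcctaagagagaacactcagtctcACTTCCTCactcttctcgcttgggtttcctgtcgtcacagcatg
Inpp5d, chr1:87620062-87620361, plus strand: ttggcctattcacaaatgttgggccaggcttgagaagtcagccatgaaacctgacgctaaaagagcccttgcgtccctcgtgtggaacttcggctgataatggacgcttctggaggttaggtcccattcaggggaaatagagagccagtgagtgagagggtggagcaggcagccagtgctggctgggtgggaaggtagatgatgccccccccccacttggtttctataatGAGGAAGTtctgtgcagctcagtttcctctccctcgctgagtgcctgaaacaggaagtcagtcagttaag
C1qc, chr4:136892865-136893164, minus strand: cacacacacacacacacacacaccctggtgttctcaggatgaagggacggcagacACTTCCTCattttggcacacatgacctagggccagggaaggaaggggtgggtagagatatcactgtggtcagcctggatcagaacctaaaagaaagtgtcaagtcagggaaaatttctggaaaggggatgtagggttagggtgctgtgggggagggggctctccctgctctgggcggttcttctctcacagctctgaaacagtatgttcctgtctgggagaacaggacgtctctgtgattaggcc
The match lies before the annotated start in Inpp5d and C1qc, spans it in Ctss and follows it in Cd53. The fifth window with a match is that of Cyth4.

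Levels per length give a rough order of the 35 messages, since the length was that of all annotated exons of a gene merged. That length can exceed the length of a single message. Over all 14 animals and per kilobase of exon, the mean level was highest for C1qb at 28.7 CPM per kilobase, followed by the protease genes Ctss at 25.5 and Lgmn at 25.3, C1qa at 23.2, Csf1r at 16.0, Cx3cr1 at 15.2 and P2ry12 at 15.1. It was lowest for Ptprc, the leukocyte phosphatase CD45, at 0.161 CPM per kilobase. P2ry6, the receptor for UDP that prompts phagocytosis, was next at 0.632. P2ry6, Cd14, Aif1, Fcer1g, Ptprc and Cd68 had a mean count under 50 per animal.

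No microglia gene passed the test between the genotypes. With sex as a term, 0 of 35 genes had an adjusted p under 0.05 by edgeR's quasi-likelihood test, against a background of 2 of 13815 genes (0.0145%), Dnmt3a and Gpnmb. At an unadjusted p under 0.05 there was 1 of the 35, Tyrobp, against 552 of 13815 genes in all. DESeq2 called 0 of the 35 and 11 genes in all, and at an unadjusted p under 0.05 it gave 1 of the 35 and 549 genes in all. The estimates were nevertheless mostly negative: 28 of 35 log2 fold changes of heterozygous over wild-type mice were below 0, with a median of -0.10, while the median of all tested genes was 0.00. They ran from -0.48 for Tyrobp to 0.11 for Cd68, 33 of them lay within 0.25 of 0, and 34 of the 35 95% intervals held 0. Standard errors ran from 0.0606 for Csf1r to 0.291 for Fcer1g. In the authors' deposited table, 0 of 35 genes passed an adjusted p of 0.05 against 27 of 14160 (0.191%), and the smallest adjusted p among the 35 was 0.196.

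**Figure D1:**
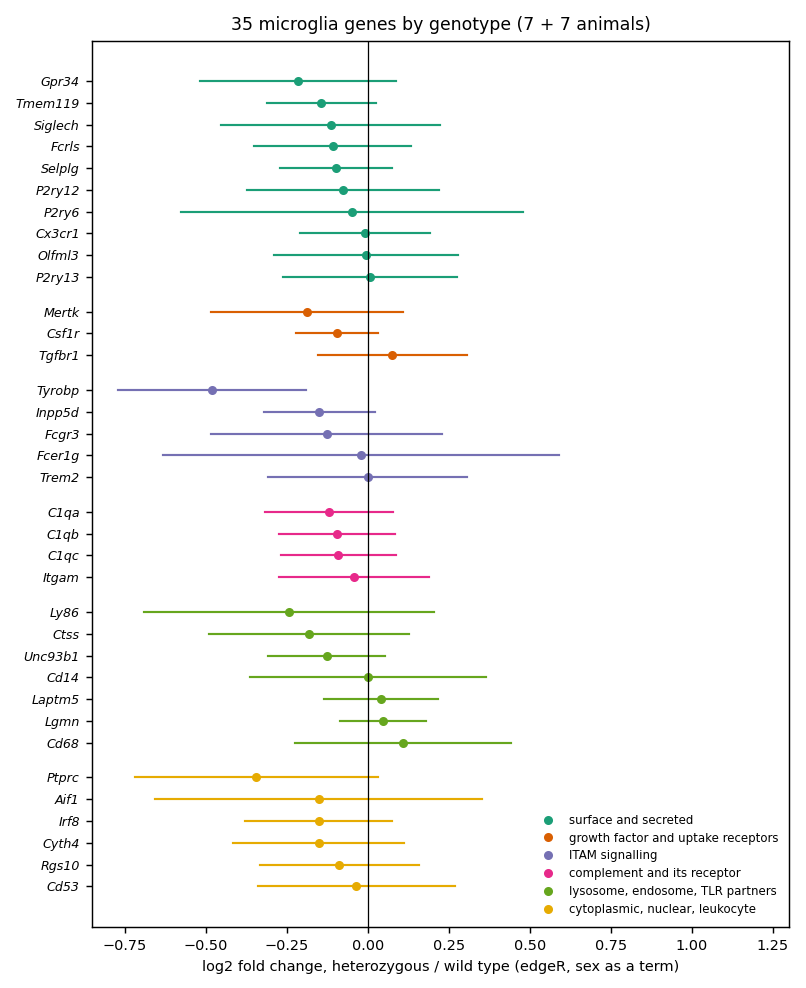
Log2 fold change of heterozygous over wild-type mice (horizontal axis) for each of the 35 genes, grouped by role, with points for the edgeR estimate with sex as a term and bars for its 95% interval (7 animals a genotype). The bar of Tyrobp is the 1 that does not reach 0, and 28 points lie left of it.

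Among the 10 surface and secreted genes, 9 estimates were negative and none passed the test. Cx3cr1, the receptor for the neuronal chemokine fractalkine, had a median of 68.3 CPM in wild-type mice (lowest 49.1, highest 83.6) and 68.1 in heterozygotes (65.0 to 71.8). Its log2 fold change was -0.01 with a 95% interval from -0.21 to 0.19. P2ry12, the ADP receptor that steers microglial processes, had a median of 39.5 CPM in wild-type mice (25.6 to 52.2) and 36.8 in heterozygotes (30.2 to 48.1), and the ranges overlapped widely. Tmem119, a membrane protein used as a microglial marker, had a median of 28.0 CPM (23.6 to 34.8) against 25.1 (23.3 to 28.0), with a log2 fold change of -0.14 and an interval from -0.31 to 0.03. Gpr34, a receptor for lysophosphatidylserine, had a median of 14.1 CPM (11.1 to 22.3) against 12.5 (10.9 to 19.3). The estimated log2 fold change of Gpr34 was -0.21 (SE 0.144), with an edgeR adjusted p of 0.978, and heterozygotes were the lower in each of the 6 prefixes, although the 2 ranges overlap. A gene lower in all 6 prefixes was found 2 times among the 35 (Gpr34 and Tyrobp) and at 2.05% of all tested genes. The lectin Siglech, the Fc receptor-like gene Fcrls and Selplg, which encodes the ligand of P-selectin, had log2 fold changes of -0.11, -0.11 and -0.10. The second ADP receptor P2ry13, the UDP receptor P2ry6 and the secreted matrix protein gene Olfml3 had 0.01, -0.05 and -0.00.

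None of the 3 receptors for growth factors and uptake passed. Csf1r, the receptor for Csf1 and Il34 on which microglial survival depends, had a median of 97.3 CPM in wild-type mice (84.2 to 107) and 88.4 in heterozygotes (85.8 to 93.1). This is the most precisely bounded of the 35 genes, with a log2 fold change of -0.10 and an interval from -0.22 to 0.03. Csf1r shares 873 bases of exon with Hmgxb3 on the opposite strand in GENCODE M21. No source says if the counting was stranded, and its counts could hold reads of that gene. Mertk, a kinase receptor for the uptake of dying cells, had a log2 fold change of -0.19 (SE 0.141). Tgfbr1, a receptor of transforming growth factor beta, which keeps microglia in their resting identity, had 0.08 (SE 0.109). Of 11 tested ligand genes, 0 passed, with Apoe at -0.25 and Cx3cl1, which encodes fractalkine, at 0.19 as the 2 with the smallest p. Within set A these 2 genes had -0.06 and 0.07, and within set B -0.44 and 0.41.

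The largest estimate among the 35 was in the ITAM group. Tyrobp, the adaptor DAP12, stood at 5.37, 3.79, 6.00, 5.48, 5.68, 7.26 and 4.37 CPM in the wild-type animals of prefixes 046, 047, 048, 139, 119, 141 and 141. In the heterozygotes of the same prefixes it stood at 4.05, 3.06, 3.87, 3.51, 3.96, 4.31 and 4.14 CPM. Heterozygotes were lower in every prefix, but the wild-type animal of prefix 047 was below 5 of the 7 heterozygotes, so the groups overlap. The mean was 5.42 ± 1.12 CPM in wild-type mice and 3.84 ± 0.428 in heterozygotes (SD, n = 7 each), a log2 fold change of -0.48 with an interval from -0.77 to -0.19. The adjusted p over all genes was 0.883 by edgeR's quasi-likelihood test, which misses the threshold. Each animal contributed 27 to 77 reads of Tyrobp. The partner of Tyrobp at the membrane, the lipid receptor Trem2, had a mean of 7.87 ± 1.91 CPM in wild-type mice and 7.84 ± 1.16 in heterozygotes (SD, n = 7 each). Fcgr3, a receptor for immunoglobulin G, and Fcer1g, the signalling chain it pairs with, had log2 fold changes of -0.13 and -0.02. Inpp5d, the phosphatase SHIP1 that restrains this signalling, had -0.15 (SE 0.0817).

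All 4 complement genes had negative estimates of small size. The 3 chains of C1q, encoded by neighbouring genes, had log2 fold changes of -0.12 (C1qa), -0.09 (C1qb) and -0.09 (C1qc), with standard errors of 0.0942, 0.0852 and 0.0847. C1qb had a median of 30.5 CPM in both genotypes, with 27.4 to 38.2 in wild-type mice and 28.2 to 32.8 in heterozygotes. Itgam, the CD11b chain of the complement receptor that recognises C3 fragments, had -0.04.

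The lysosomal and endosomal genes were split, with 4 estimates above 0 and 3 below. Cd68, a glycoprotein of the lysosomal membrane, had 0.11, the protease legumain (Lgmn) 0.05, the lysosomal membrane protein gene Laptm5 0.04 and Cd14, a co-receptor for bacterial lipopolysaccharide, 0.00. Cathepsin S (Ctss), the protease that trims the invariant chain of MHC class II, had -0.18, Unc93b1, which carries Toll-like receptors to the endosome, had -0.13, and Ly86, the MD-1 partner of a Toll-like receptor homologue, had -0.24. All 6 remaining genes, which act in the cytoplasm or nucleus or are shared with other leukocytes, had negative estimates. They were -0.34 for Ptprc (SE 0.179), -0.15 each for Aif1 (the actin-binding protein IBA1), Irf8 (the transcription factor) and Cyth4 (an exchange factor for Arf proteins), -0.09 for Rgs10, a brake on G protein signalling, and -0.04 for the tetraspanin gene Cd53.

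Taking the title prefix as a block, so that animals are compared within a prefix, left the count at 0 of 35 where the background was 56 of 13815 genes (0.405%). Tyrobp then had a log2 fold change of -0.49, and its edgeR adjusted p was 0.097. A term for the 2 sets beside sex gave 0 of 35 as well, with 15 genes in all (0.109%). Astrocyte markers went the same way as the microglia genes, with 12 of 12 estimates negative, a median of -0.19 and 0 called, beside the small shift of the 35 genes. Estimates were also negative for 59 of 61 ribosomal protein genes (median -0.16) and for 7 of 7 tested mitochondrial messages (median -0.26), with 0 called in either list. The part of these messages in that shift was not tested.

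Many of these genes differed among the title prefixes. In a test of any difference among the 6 prefixes with genotype as a term, 14 of 35 genes passed an adjusted p of 0.05 by edgeR (40.0%), against a background of 4591 of 13815 (33.2%). The share is thus near that of all genes. The 14 were P2ry12, P2ry13, Gpr34 and Siglech of the surface group, Mertk and Tgfbr1 of the receptors, Fcer1g and Fcgr3 of the ITAM group, Itgam, Ctss, Ly86, and the leukocyte genes Aif1, Cd53 and Rgs10. All 14 had higher levels in set B than in set A. Once sex and set were in the model, the prefix terms that remained passed for 0 of 35 genes, with 4 genes in all (0.029%). At an unadjusted p under 0.05 there were 7 of the 35 and 1402 genes in all. That test held fewer prefix terms, and the sets came from the main component of these same data. The counts of 14 and 0 are thus not like for like. Whether the sets account for the prefix differences was not tested.

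**Figure D2:**
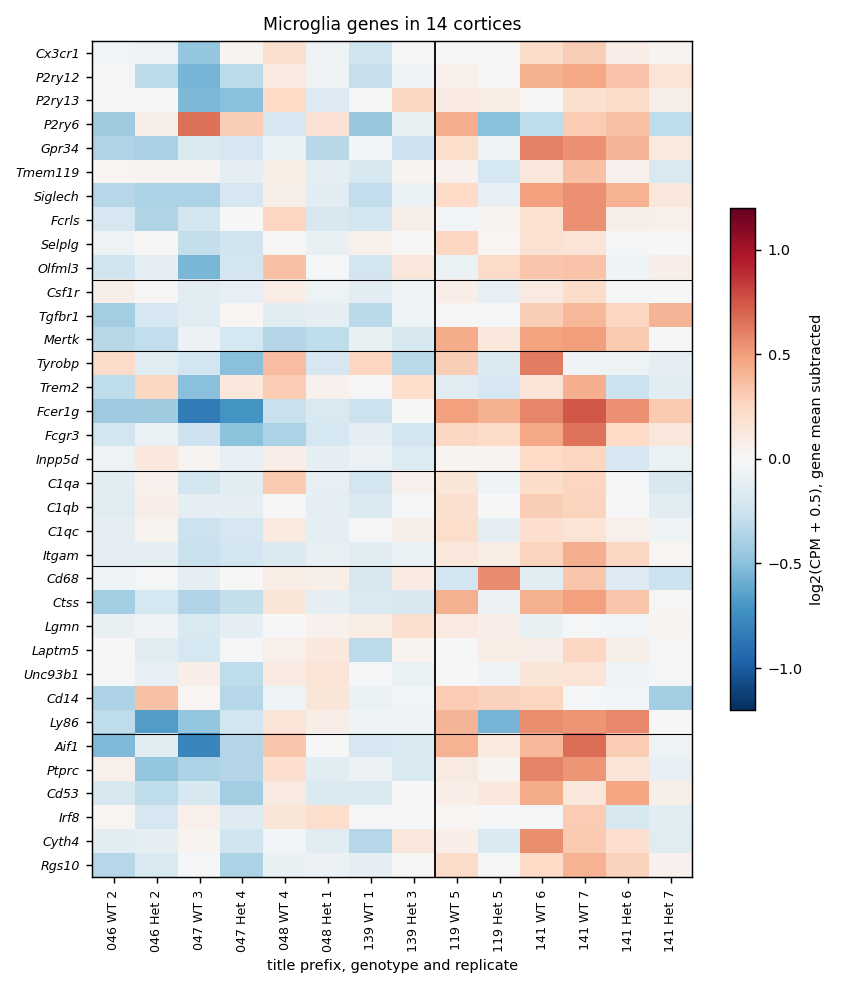
Level of each of the 35 genes (vertical axis, grouped by role) in each of the 14 animals (horizontal axis, by title prefix, genotype and replicate), as log2(CPM + 0.5) less the mean of the gene, with the line between sets A and B. The wild-type columns of set B are mostly red and its heterozygous columns hold both colours, and 33 of the 35 genes had a higher estimate in set B.

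The difference between the sets was in the same direction for nearly all of the 35 genes, and is given as a description because the sets were named from the data. The log2 difference of set B over set A was positive for 33 of 35 genes with a median of 0.21, against 0.00 for all tested genes. It ran from -0.05 for Trem2 to 1.05 for Fcer1g. Fcer1g stood at 1.77, 1.21, 2.03 and 2.07 CPM in the wild-type mice of prefixes 046, 047, 048 and 139, and at 1.77, 1.36, 2.20 and 2.56 in their heterozygotes. In set B it stood at 3.81, 4.09 and 4.64 CPM in wild-type mice and 3.62, 3.96 and 3.31 in heterozygotes, so that every animal of set B was above every animal of set A. This lack of overlap was found for 4 of 35 genes (Fcer1g, Fcgr3, Mertk and Itgam, 11.4%) and for 5.96% of all tested genes.

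Mertk had the smallest adjusted p among prefixes (2.70e-05 by edgeR). It stood at 37.0 to 45.1 CPM in set A and 46.9 to 67.1 in set B, a 1.44-fold difference. Fcgr3 stood at 5.77 to 7.85 CPM against 9.19 to 13.4, and Itgam at 15.7 to 18 against 19.4 to 25.9. Among the receptors and surface markers, Gpr34 and Siglech were 1.44-fold and 1.43-fold higher in set B and P2ry12 1.34-fold, whereas Tmem119 and Csf1r were 1.04-fold and 1.07-fold higher and their intervals held 0 on the log2 scale. Ctss, Ly86 and Aif1 were 1.40-fold, 1.41-fold and 1.58-fold higher. Lgmn, Irf8, Trem2, Unc93b1 and P2ry6 differed by less than 0.05 on the log2 scale. The 3 C1q genes lay between, at 0.13 to 0.19.

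**Figure D3:**
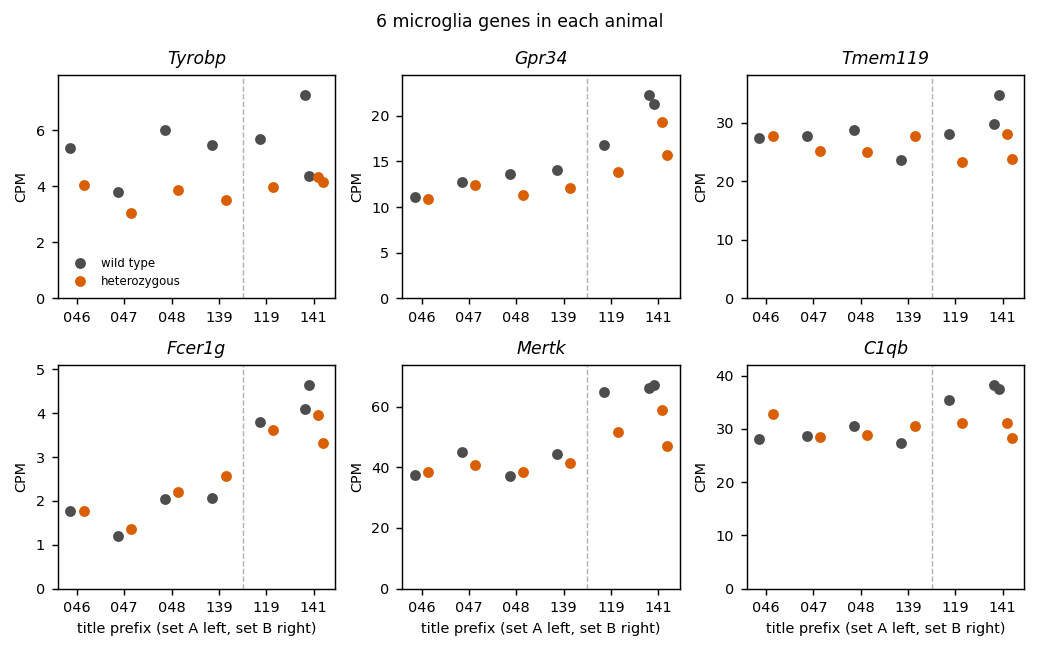
CPM (vertical axis, from 0) of 6 genes in each animal by title prefix (horizontal axis), wild-type mice in grey and heterozygotes in orange, with a dashed line between set A and set B. Fcer1g and Mertk are higher in every animal of set B, Tyrobp and Gpr34 are lower in heterozygotes on average in each prefix, and C1qb is higher in every wild-type mouse than in any heterozygote of set B.

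Other messages differed between the sets at the same time. Summed levels of the 35 genes were 632 to 781 CPM in set A and 752 to 929 in set B. The 12 astrocyte markers, all 12 higher in set B, summed to 10006 to 11659 CPM and 13480 to 19057 CPM. Of 13 mitochondrial messages, 7 were tested and 5 were listed at 0 in every animal, and their sum was 5705 to 8599 CPM in set A and 11098 to 19919 in set B. Ribosomal protein genes were higher in set B for 56 of 61. Of 39 other tested microglial genes, 37 were higher in set B, with a median log2 difference of 0.30. Neuronal markers mostly went the other way, with 3 of 12 higher in set B and a median of -0.20. The 8 border macrophage markers overlapped, at 23.5 to 32.6 and 24.7 to 34.4 CPM. The part of these in the difference of the microglia genes was not tested, and the sets cannot be told apart from whatever the prefix marks.

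**Figure D4:**
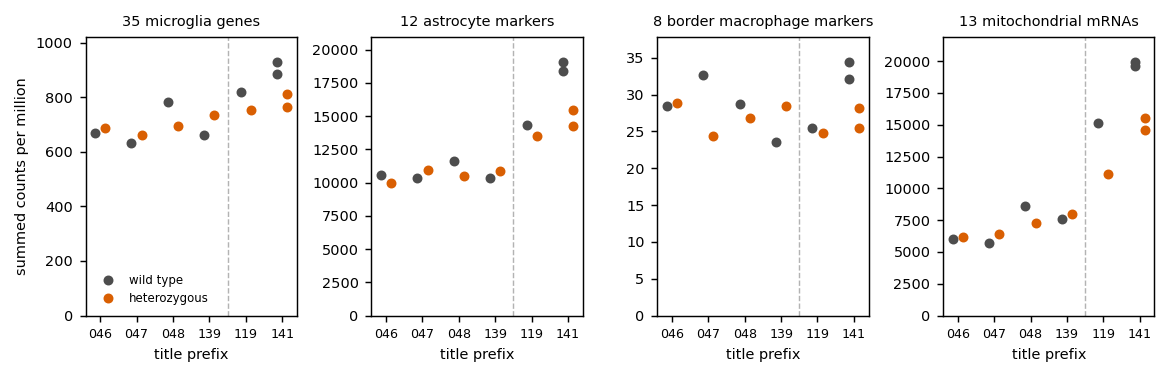
Summed CPM (vertical axes, from 0, each panel on its own scale) of the 35 microglia genes, 12 astrocyte markers, 8 border macrophage markers and 13 mitochondrial mRNAs in each animal by title prefix (horizontal axis), wild-type mice in grey and heterozygotes in orange, with a dashed line between sets A and B. Microglia genes, astrocyte markers and mitochondrial mRNAs are highest in the wild-type animals of prefix 141.

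The genotypes were also compared within each of the 2 sets. In set A, 16 of 35 log2 fold changes were negative with a median of 0.01, and in no gene was every wild-type mouse above every heterozygote (0 of 35, background 1.37%). In set B, 31 of 35 were negative with a median of -0.24, against 0.00 for all tested genes. There every wild-type mouse was above every heterozygote in 12 of 35 genes (34.3%, background 11.3%): Selplg, Csf1r, Mertk, Tyrobp, Fcgr3, Inpp5d, C1qa, C1qb, C1qc, Ctss, Unc93b1 and Aif1. A fit of the 6 animals of set B alone called 7 of 35 genes, all lower in heterozygotes (20%, against 2304 of 13881 genes, 16.6%), with 17 of the 35 and 4167 genes in all at an unadjusted p under 0.05. The 8 animals of set A alone gave 0 of 35 and 0 of 13852 genes, with 2 of the 35 and 609 genes at an unadjusted p under 0.05. The 7 called in set B were C1qa, C1qb, Csf1r, Ctss, Gpr34, Mertk and Tmem119.

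The test of the difference itself, genotype by set, passed for 0 of 35 genes and 0 of 13815 (0%) by edgeR, with 5 of the 35 and 2036 genes in all at an unadjusted p under 0.05. DESeq2 also called none of the 35 and called 202 genes in all. With the prefix as a block, 1 of the 35 passed (2.86%), C1qb, against 767 genes (5.55%), a larger share than that of the microglia genes. C1qb stood at 28.1, 28.6, 30.5 and 27.4 CPM in the wild-type mice of prefixes 046, 047, 048 and 139 and at 32.8, 28.5, 28.8 and 30.5 in their heterozygotes. In prefixes 119, 141 and 141 it stood at 35.5, 38.2 and 37.4 CPM in wild-type mice and 31.2, 31.0 and 28.2 in heterozygotes. The groups are thus apart in set B and mixed in set A. On the log2 scale heterozygotes differed from wild-type mice by 0.08 in set A and by -0.29 in set B, a difference of -0.37 with an adjusted p of 0.138 by edgeR without the block and 0.0425 with it.

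Trem2 had the widest gap between the sets, at 0.29 in set A and -0.38 in set B on the log2 scale. It stood at 6.18, 5.32, 9.69 and 7.62 CPM in the wild-type mice of set A and 9.29, 8.49, 8.03 and 9.0 in their heterozygotes, with the wild-type mouse of prefix 048 the highest of all 8. In set B it stood at 6.95, 8.69 and 10.7 CPM in wild-type mice and 6.66, 6.40 and 7.04 in heterozygotes. The adjusted p of the difference was 0.207 by edgeR. Mertk differed by -0.29 between the sets (adjusted p = 0.214 by edgeR), Ctss by -0.35 (0.311) and C1qa by -0.32 (0.322). Tyrobp had nearly the same value in both, -0.50 in set A and -0.46 in set B. Without the wild-type mouse of prefix 048, C1qa, C1qb, Ctss and Trem2 passed the test of the difference, among 563 of 13872 genes. Without that of prefix 119, C1qb and Trem2 passed, among 850 of 13866 genes.

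**Figure D5:**
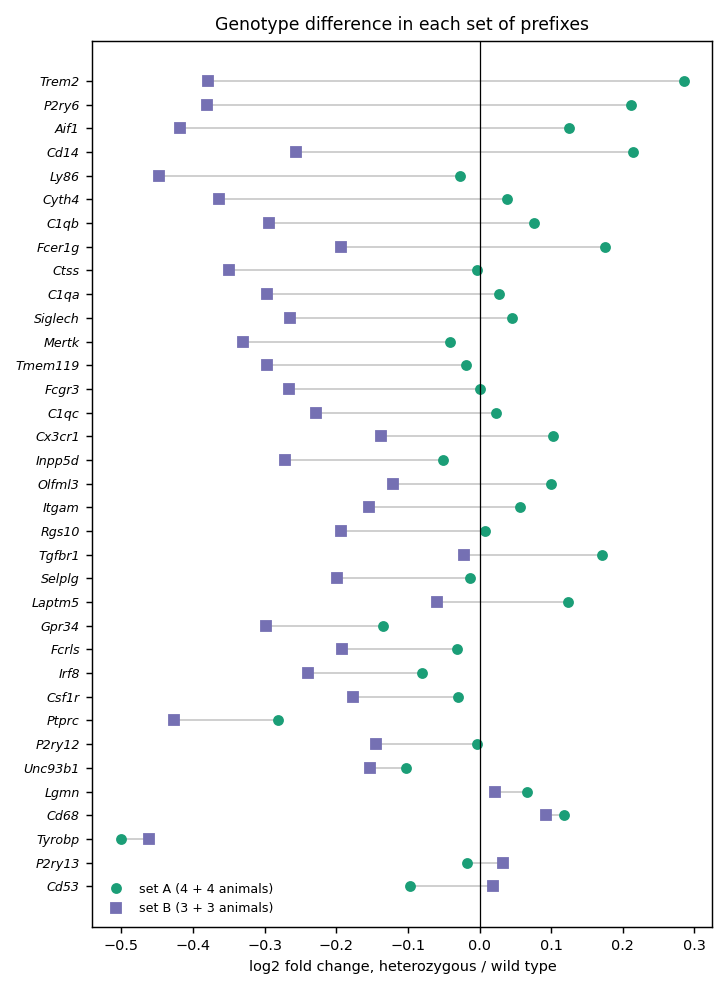
Log2 fold change of heterozygous over wild-type mice (horizontal axis) within set A (green circles, 4 animals a genotype) and set B (violet squares, 3 animals a genotype) for each of the 35 genes, ordered by the difference between the sets. The square lies left of the circle for 32 of 35 genes.

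Within set B the sum of the 35 genes was 821 to 929 CPM in wild-type mice and 752 to 814 in heterozygotes. Within set A it was 632 to 781 and 661 to 734. The 12 astrocyte markers had 12 of 12 negative estimates in set B with a median of -0.32. Of these, 5 of the 12 passed the test of the difference with the block, against 5.55% of all tested genes. The 5 tested border macrophage markers were all negative in set B, with a median of -0.29. Oligodendrocyte and neuronal markers went the other way there, with medians of 0.23 and 0.16 and 2 of 12 negative in each list. Mitochondrial messages of set B lay between 15128 and 19919 CPM in sum for wild-type mice and between 11098 and 15552 for heterozygotes, and 59 of 61 ribosomal protein genes were lower there. Their part in the values of the microglia genes was not tested.

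No microglia gene passed the test between females and males. The comparison of the sexes passed for 0 of 35 genes and 1 gene in all (0.00724%) by edgeR, with log2 differences of female over male from -0.24 (Cd14) to 0.33 (Gpr34). Gpr34 and Tgfbr1 (0.27) had an unadjusted p under 0.05, as did 964 of the 13815 genes. Every prefix is of 1 sex, so sex cannot be fully told apart from prefix, and the fit took animals of a prefix as independent. Gpr34 and Tgfbr1 also differed among the prefixes. The difference of the genotype effect between the sexes passed for 0 of 35 genes and 0 genes in all (0%), with 0 of the 35 and 144 genes at an unadjusted p under 0.05. DESeq2 called 0 of the 35 in both comparisons.

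Further genes known from microglia and from border macrophages were compared by genotype. Their RNA from other cells of the cortex cannot be set apart here either. Of 40 other microglial genes, 39 were tested, 8 estimates were positive and 31 negative, the median was -0.14 and 0 passed in either direction. Abi3, an adaptor of the actin machinery, had a log2 fold change of -0.34 and the kinase gene Lyn -0.25, the 2 with the smallest p. Of 23 genes that microglia raise in disease models, 17 were tested and 1 passed. This was Gpnmb, a membrane glycoprotein of phagocytic cells, with a range of 0.678 to 2.98 CPM in wild-type mice, against 4.17 to 5.13 in heterozygotes, and no overlap between the genotypes. It rose with a log2 fold change of 1.32 (SE 0.211, adjusted p = 0.0454 by edgeR) and with the block of 1.36 (adjusted p = 0.00205 by edgeR). The call is close to the threshold: it was kept in 4 of 14 fits without 1 animal, where the largest adjusted p was 0.188. Next in that list was the chemokine gene Ccl6 at -0.47, which did not pass. Among border macrophage markers, 5 of 8 were tested, all 5 estimates were negative and 0 passed, with F13a1 at -0.31 and Lyve1 at -0.22.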

How the data were processed

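RNA from the cortex of 14 mice was sequenced as single-end reads from a directional kit, per the labels' protocols. The authors deposited 1 table of whole-number counts per gene symbol with no normalization, and beside it their own comparison in 4 columns: log2 fold change, test statistic (a score), p-value and adjusted p-value. Per the submitters' processing notes, Trim Galore, Bowtie, STAR and bedtools were used and the build was mm9. The roles of these tools are not given in the sources used here. Group and sex came from the labels, and replicates are numbered in series order. Whether the littermates of 1 prefix are from 1 litter is not stated.

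Of 34193 symbols, 14540 had no reads. The quasi-likelihood F test of edgeR 4.0.16 (with limma 3.58.1 in R 4.3.3) was run on counts scaled by TMM, after filterByExpr by genotype (13815 genes, 99.9% of counts), with sex as a term and Benjamini-Hochberg adjustment over all tested genes at 0.05. CPM of single genes use TMM-scaled library sizes, and the summed CPM of a list use the unscaled total counts of each library. The procedure was tested on simulated counts. Exon lengths and overlaps came from GENCODE M21, another build than that of the counts, matched by symbol. Motifs were counted in RefSeq promoter windows of GRCm38.p6. The intervals are for the estimated log2 fold change, with a standard error taken from its F statistic, and not for the range of single animals. They rest on the spread between these animals.

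The 35 genes, the other lists and the 2 sets were chosen with earlier results of these data known. All 35 genes are named. Of the other lists, those past the threshold with or without the block are named, or else the 2 with the smallest p. The prefixes pair the animals by the rule that every pair's deviations correlate above 0.1 (0.20 to 0.517 in 9 pairs), but beyond sex and set they correlated at -0.328 to -0.00545. Alternatives were relative log expression size factors, no filter, DESeq2 1.42.0, leaving out each animal, the prefix as a block, a set term, and each set alone. The prefix test after sex and set was chosen after seeing the data.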

Additional observations from a re-analysis of the deposited data

Results flagged for a closer look

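In 3 of the 70 groups of 7 animals examined (35 genes in each genotype), 1 animal lay far from the rest of its group by Dixon's test. Chance gives about 1 in 20. P2ry13 was 7.66 CPM (95 reads) in wild-type replicate 3, of prefix 047, against 11.3 to 13.6 in the other wild-type mice. Cd68 was 4.80 CPM (57 reads) in heterozygous replicate 5, of prefix 119, against 2.48 to 3.32 in the others. Irf8 was 6.14 CPM (81 reads) in heterozygous replicate 1, of prefix 048, against 4.47 to 5.14.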

How the results depend on the processing

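By genotype, the count of called microglia genes was 0 under every alternative except set B alone, which called 7, and the median log2 fold change lay between -0.15 (without wild-type replicate 3) and -0.03 (without wild-type replicate 7), with 0.00 in set A alone and -0.24 in set B alone. Of the 35 genes, 20 changed sign in at least 1 alternative while not called and 15 in none. The 7 had log2 fold changes in set B of -0.18 (Csf1r), -0.29 (C1qa and C1qb), -0.30 (Gpr34 and Tmem119), -0.32 (Mertk) and -0.35 (Ctss). For the genotype difference between sets, the title prefix as a replicate block called 1 microglia gene where the fit without it called 0, and leaving out 1 animal called 0 to 4. The block changed no other call of a microglia gene. Prefix terms left after sex and set called 0 microglia genes. The test of all prefixes called 14, but it held more terms and no set drawn from these data. Over all genes, genotype called 2 with sex, 11 with DESeq2, 15 with a set term and 56 with the block. The difference between sets called 0, and 381 without a filter, 202 with DESeq2 and 767 with the block. The comparison of the sexes called 1, and 9 without a filter, 11 with DESeq2 and 17 with a set term. The causes of these shifts were not tested. Genes with a mean count under 50 (6 of 35) limit what the depth can show.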

Other observations

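Markers of the other cells of the cortex were compared by genotype in the same fit. Of 12 oligodendrocyte markers, 10 estimates were positive and 0 passed, with transferrin (Trf) at a log2 fold change of 0.27 and the myelin enzyme gene Cnp at 0.19. Of 12 astrocyte markers, 12 were negative and 0 passed, with the intermediate filament gene Gfap at -0.40 and the clusterin gene Clu at -0.18. Of 12 endothelial markers, 9 were negative and 0 passed, with the tight junction gene Cldn5 at -0.20 and the transporter gene Slco1a4 at -0.16. Of 12 neuronal markers, 10 were positive and 0 passed, with the synaptic genes Snap25 at 0.12 and Camk2a at -0.20. Of 5 tested red cell genes, 4 were negative and 0 passed.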
